A study of Mus musculus with 14 samples.

Results

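The TOX family comprises 4 genes, Tox, Tox2, Tox3 and Tox4, which encode nuclear proteins that share a single high-mobility-group box, a domain that binds and bends DNA. They were taken from the table of counts by their symbols, 4 of 24091 listed genes, and 3 of them had enough reads to enter the 12248 genes tested. Expression was measured by bulk RNA-seq of T cells sorted from mouse spleens, 200000 cells and 1 library per mouse. CP CML stands for Mir142+/+BCR-ABL mice (n = 8), a model of chronic-phase chronic myeloid leukemia, and BC CML for Mir142−/−BCR-ABL mice (n = 6), in which the same leukemia without miR-142 models blast crisis. Both groups carried the SCLtTA/BCR-ABL transgenes on the CD45.2 C57Bl/6j background and had BCR-ABL switched on by withdrawing tetracycline for 3 weeks, and the colony used male and female mice of 6 to 10 weeks of age.

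The comparison asked how the family differs between T cells of the 2 disease models. BCR-ABL expression is driven in this model by a transactivator under the SCL promoter, which is active in blood stem and progenitor cells, and Mir142 is deleted in every cell of the BC CML mice, T cells and leukemic cells alike. No mice without leukemia are part of these data. The mouse names carry 1 prefix in all CP CML mice and another in all BC CML mice, so cohort and genotype cannot be told apart.

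Tox is required in the thymus for the development of CD4 T cells, and in mature CD8 T cells under chronic stimulation calcineurin and NFAT induce it, after which it maintains the exhausted state. Tox2 is related to Tox in sequence, acts beside it in exhausted cells and belongs to the program of follicular helper T cells, which help B cells in germinal centres. Tox3 is known mainly from neurons and breast epithelium, and Tox4 is expressed in most tissues, where it binds the PTW/PP1 phosphatase complex that acts on RNA polymerase II.

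The deleted gene checked the labels. Mir142 (mm10 chr11:87756864-87756927, plus strand) had between 302 and 650 reads in the 8 CP CML libraries and 0 reads in all 6 BC CML libraries, which allows up to 3 reads per library. The 2 mature microRNAs of this hairpin are shown because they are what BC CML T cells lack. Each is written with its seed, bases 2 to 8, in capitals (RefSeq, GRCm38.p6), and the 2 seeds differ.

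mmu-miR-142a-3p: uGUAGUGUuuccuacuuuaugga
mmu-miR-142a-5p: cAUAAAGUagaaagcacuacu

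The 3′UTRs of the family, taken from the GENCODE vM21 transcript with the longest 3′UTR of each gene, were searched on the transcript strand for letters complementary to these seeds. For miR-142a-3p the 6mer was CACTAC, the 7mer-m8, with the next letter before it, was ACACTAC, and the 8mer, which ends in adenine, was ACACTACA. For miR-142a-5p the 6mer was CTTTAT, the 7mer-m8 was ACTTTAT and the 8mer was ACTTTATA. A 6mer followed by adenine alone was a class of its own (7mer-A1), and nested matches were counted once as the longest. The stretches that hold a match are shown to let the members be compared, with the matching letters in capitals.

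Tox, miR-142a-3p 6mer: aatataccagCACTACtaattaa
Tox, miR-142a-5p 6mer, first: agtcatgcttCTTTATtattttttta
Tox, miR-142a-5p 6mer, second: aagtgctcctCTTTATctatggctct
Tox3, miR-142a-3p 8mer: tttaaaaggcACACTACAtctgatagtc
Tox4, miR-142a-3p 7mer-m8: taaactcttaACACTACcagcccccct

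The 3 matches of Tox were of the shortest class. They lay at bases 2060 to 2065 (chr4:6686360-6686365), 170 to 175 (chr4:6688250-6688255) and 846 to 851 (chr4:6687574-6687579) of a 3′UTR of 2072 bases, on the minus strand of mm10. The Tox3 match lay at bases 903 to 910 of 1234 (chr8:90247364-90247371, minus strand). The Tox4 match lay at bases 2332 to 2338 of 3140 (chr14:52295593-52295599, plus strand). Tox2 had no match to either microRNA in its 1390 bases of 3′UTR, which says only that these letters are not in this window.

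Of 11509 tested genes with a 3′UTR, 3.04% held an 8mer for miR-142a-3p, 6.96% an 8mer or a 7mer-m8, and 19.9% a match of any class. A match of any class for miR-142a-5p was held by 40.2%. The median log2 fold change from CP CML to BC CML was 0.19 over the 801 genes with an 8mer or 7mer-m8 for miR-142a-3p and -0.02 over the 10708 genes without, where 0 stands for no difference. Over genes with any class of match, the longer classes included, it was 0.11 for miR-142a-3p (-0.03 without) and 0.03 for miR-142a-5p (-0.03 without). Tox holds only matches of the shortest class, and no median was computed over genes with that class alone. These shares are descriptions of letters in the annotated 3′UTRs, and binding was not measured. The matches for miR-142a-3p in Tox and Tox4 lay beyond the end of the gene as the counts list it, and 1039 of the 2072 bases of the Tox 3′UTR and 2248 of the 3140 bases of the Tox4 3′UTR lay inside.

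The libraries held between 15703702 and 19914531 reads. Of the tested genes 65.2% passed an adjusted p of 0.05 between the groups, 32.6% higher and 32.7% lower in BC CML, so passing the test was the usual outcome for a gene in this comparison. The median absolute log2 fold change was 0.28 over all tested genes and 0.43 over those that passed. T cell identity genes were present in every library, with a summed level of the 12 listed markers of 4421 to 5063 CPM (read counts scaled to library size after TMM normalization) in CP CML and 5463 to 5760 in BC CML. Of these 12 markers 6 were higher and 2 lower in BC CML, and Cd3e, a subunit of the T cell receptor complex, was among the 4 that did not pass the test (log2 fold change 0.02, adjusted p = 0.705).

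Tox was higher in BC CML T cells. Its level was 49.5 CPM at the lowest, 58.3 at the median and 66.8 at the highest in the 8 CP CML mice, and 65.9, 73.1 and 86.9 in the 6 BC CML mice. All 6 BC CML mice stood above the CP CML median and 4 stood above every CP CML mouse, while the other two lay within the top of the CP CML range, so the groups overlapped. The mean rose from 57.2 ± 6.38 (SD, n = 8) to 74.0 ± 8.78 (SD, n = 6), a log2 fold change of 0.37 (SE 0.08, adjusted p = 0.000538, quasi-likelihood test of edgeR, Benjamini-Hochberg adjusted over all tested genes). This is a fold of 1.30 with a 95% interval of 1.16 to 1.44. The values rest on 780 to 1192 reads per CP CML library and 1084 to 1690 per BC CML library, at chr4:6687386-6991557 on the minus strand.

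The size of the Tox difference was not unusual in this comparison. It was larger in absolute size than that of 60.7% of the tested genes, and 36.9% of the tested genes had groups that did not overlap at all, which the Tox groups did. The spread between mice was alike in the 2 groups, with a coefficient of variation of 11.2% in CP CML and 11.9% in BC CML. In bulk RNA, more Tox per cell and a larger share of cells that express Tox cannot be told apart.

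**Figure D1:**
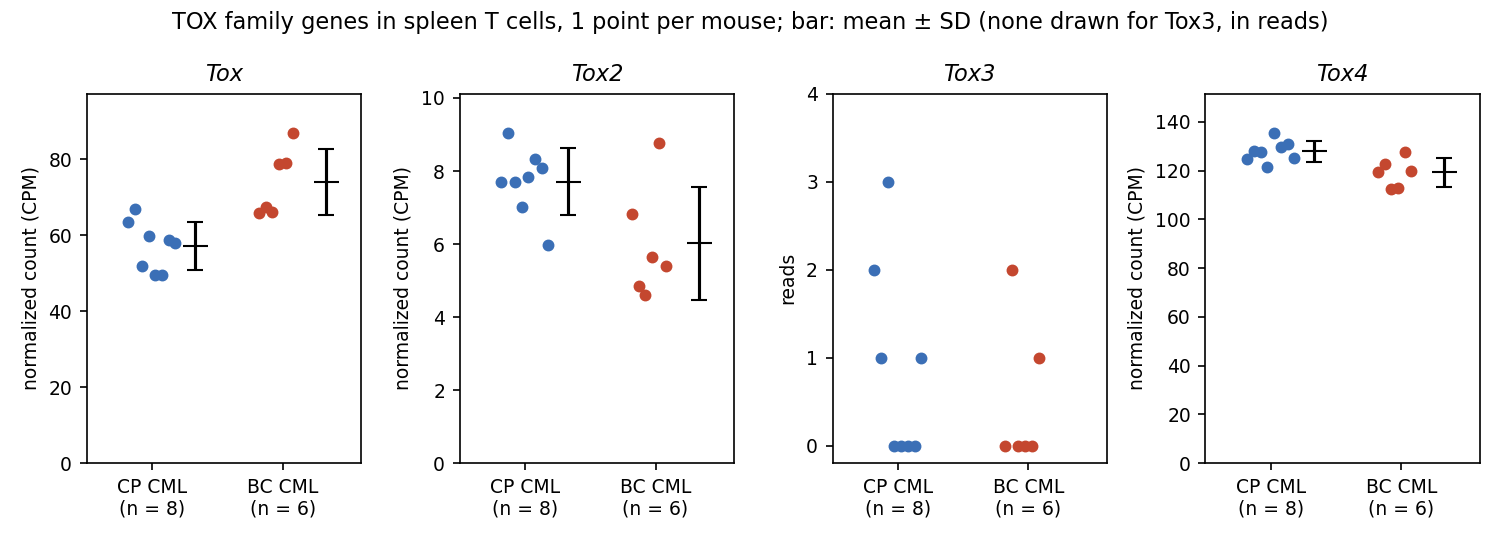
Level of each TOX family gene in each mouse, in CPM for Tox, Tox2 and Tox4 and in reads for Tox3, with CP CML in blue, BC CML in red, and the mean ± SD beside the points. Tox points of BC CML (65.9 to 86.9 CPM) sit above most of CP CML (49.5 to 66.8), Tox2 and Tox4 sit lower with overlap, and Tox3 stays at 3 reads or fewer.

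Tox2, the member tied to follicular helper cells, was lower in BC CML. It was expressed at a low level, with a lowest, median and highest value of 5.97, 7.77 and 9.04 CPM in CP CML and 4.62, 5.52 and 8.77 CPM in BC CML. Here 5 of 6 BC CML mice lay below the CP CML median and 4 lay below every CP CML mouse. BC CML replicate 5, at 8.77 CPM, was the exception and stood above all CP CML mice but 1, and its name alone ends in letters that the labels do not explain. The mean fell from 7.71 ± 0.909 (SD, n = 8) to 6.02 ± 1.55 (SD, n = 6), a log2 fold change of -0.36 (SE 0.14, adjusted p = 0.0287), or a fold of 0.781 with a 95% interval of 0.650 to 0.940. The coefficient of variation was 25.8% in BC CML and 11.8% in CP CML.

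Tox2 lost its call in 5 of 14 analyses that left out 1 mouse, against 0 for Tox and 2 for Tox4. It rests on 95 to 154 reads per CP CML library and 78 to 162 per BC CML library at chr2:163225454-163323102 on the plus strand. Without BC CML replicate 5 the log2 fold change was -0.50 (adjusted p = 0.00136). The losses came without BC CML replicate 2, 3, 4 or 6 or without CP CML replicate 2, which gave values of -0.34 to -0.29 on the log2 scale and an adjusted p of up to 0.0737.

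Tox3 was barely detected. It had 7 reads over the 8 CP CML libraries, in 4 of them, and 3 reads over the 6 BC CML libraries, in 2 of them, with at most 3 reads in any library, at chr8:90247112-90348252 on the minus strand. Both groups stood at or under 3 reads per library, so no fold is given, and a difference in Tox3 was not detectable at this depth (exact two-sided permutation test over 3003 splits of the mice, p = 0.548).

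Tox4, the broadly expressed member, was lower in BC CML by a small amount. Its lowest, median and highest values were 121.6, 127.8 and 135.4 CPM in CP CML and 112.6, 119.6 and 127.8 CPM in BC CML. Every BC CML mouse lay at or below the CP CML median and 4 lay below every CP CML mouse, with the other two inside its range. The mean fell from 127.9 ± 4.24 (SD, n = 8) to 119.3 ± 5.81 (SD, n = 6), a log2 fold change of -0.10 (SE 0.04, adjusted p = 0.0218), or a fold of 0.933 with a 95% interval of 0.887 to 0.980. Only 20.5% of tested genes differed by less in absolute size.

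Tox4 was also the most even member across mice, with a coefficient of variation of 3.32% in CP CML and 4.88% in BC CML. It had 1971 to 2498 reads per library at chr14:52279146-52295509 on the plus strand. The direction depended on the scale, since in TPM, reads per kilobase of listed gene length rescaled to a common sum in every library, the log2 difference was 0.00328 (exact permutation p = 0.919) where the median of all tested genes stood at 0.09. Relative to the median of all tested genes it was -0.09 on both scales. The call was lost without BC CML replicate 3 or 4, where the log2 fold change was -0.085 and -0.087.

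**Figure D2:**
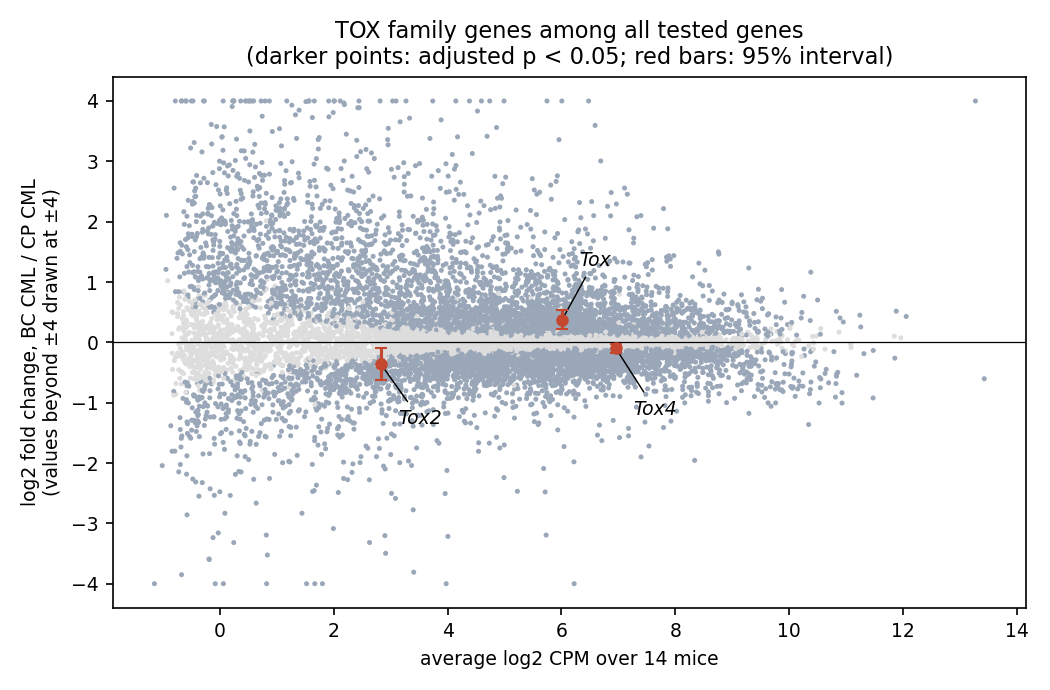
Log2 fold change from CP CML to BC CML against the average log2 CPM over 14 mice for all 12248 tested genes, with genes that passed the adjusted p of 0.05 in the darker grey and Tox, Tox2 and Tox4 in red with 95% intervals. The 3 members are among the genes that passed, at 0.37, -0.36 and -0.10, far from the largest changes in either direction.

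Levels of the members were compared per length, in TPM. Tox4 was the most abundant, at 59.5 ± 2.10 in CP CML and 59.6 ± 2.90 in BC CML (SD, n = 8 and 6 throughout). Tox followed at 24.2 ± 2.57 and 33.7 ± 4.09, then Tox2 at 12.3 ± 1.30 and 10.3 ± 2.58, and Tox3 stood last at 0.0406 and 0.0267. The order was the same in both groups, and with the listed lengths the ranges of neighbours in it did not overlap. These lengths were 6.285 kb for Tox, 1.666 kb for Tox2, 3.186 kb for Tox3 and 5.726 kb for Tox4, against GENCODE transcripts of 3961 bases for Tox, 2947 for Tox2, 3356 for Tox3 and 5350 for Tox4. With the GENCODE lengths the means kept their order, but Tox (46.9 to 62.9 TPM) and Tox4 (59.2 to 67.3 TPM) overlapped in BC CML.

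The make-up of the family therefore differed between the groups. Of the summed per-length level of the 4 genes by listed length, Tox held 25.2 ± 2.43% in CP CML and 32.5 ± 2.67% in BC CML. Tox2 held 12.8 ± 1.21% and 9.90 ± 1.99%, and Tox4 held 62.0 ± 2.32% and 57.6 ± 2.57%. These shares depend on the length used. With the GENCODE lengths Tox held 35.2 ± 2.97% in CP CML and 43.3 ± 2.91% in BC CML, Tox2 held 6.38 ± 0.657% and 4.72 ± 1.02%, and Tox4 held 58.4 ± 2.79% and 51.9 ± 2.71% (SD, n = 8 and 6).

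Ratios within a library tested whether the members differed in their change, without regard to normalization. The log2 ratio of Tox to Tox4 was between -1.45 and -0.94 in CP CML and between -0.86 and -0.46 in BC CML, so the groups did not overlap. Its mean was higher in BC CML by 0.47 (exact two-sided permutation p = 0.000666, adjusted over 3 pairs 0.0015). The mice that overlapped in Tox itself were thus apart in its ratio to Tox4. Of single tested genes 36.9% had groups that did not overlap, and the share among ratios of other gene pairs was not computed.

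The log2 ratio of Tox to Tox2 was 2.87 ± 0.23 in CP CML (SD, n = 8) and 3.62 ± 0.34 in BC CML (SD, n = 6), higher by 0.75 (exact permutation p = 0.000999, adjusted 0.0015). The groups overlapped between 3.16, the lowest BC CML value, and 3.25, the highest CP CML value. The log2 ratio of Tox2 to Tox4 was lower in BC CML by 0.28 on the means (-4.32 ± 0.30 against -4.04 ± 0.16), with an exact permutation p of 0.047 after adjustment. That last difference missed the threshold in 11 of 14 analyses that left out 1 mouse, all but those without BC CML replicate 1 or 5 or CP CML replicate 8.

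**Figure D3:**
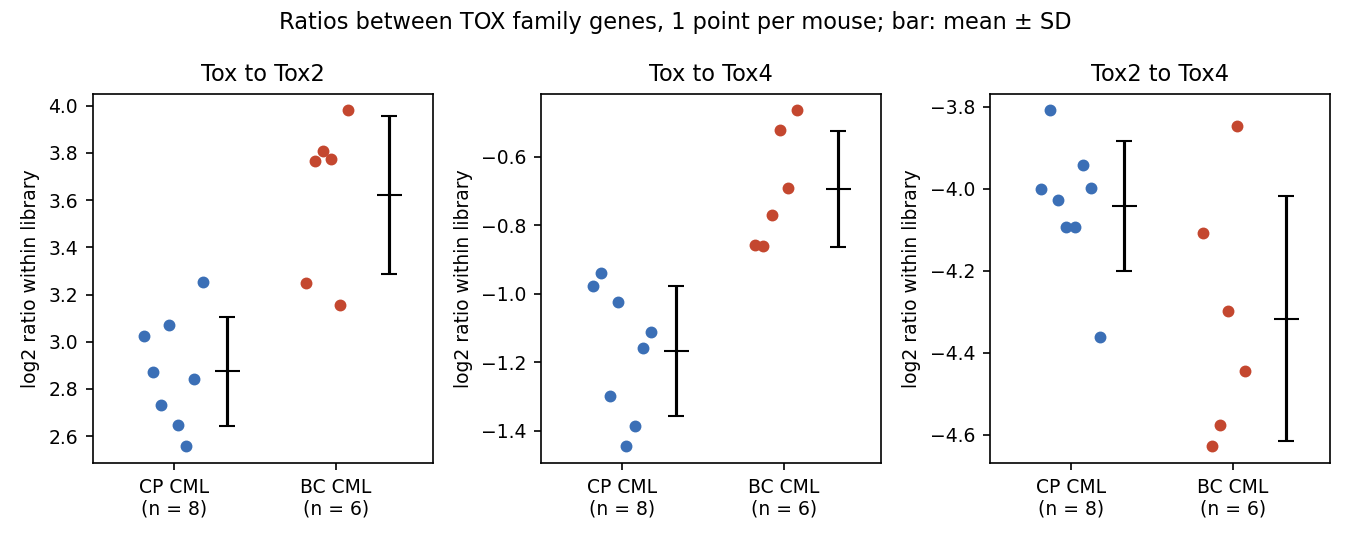
Log2 ratio of 2 TOX family genes within each library, 1 point per mouse, CP CML in blue (n = 8) and BC CML in red (n = 6), with mean ± SD beside the points. The ratio of Tox to Tox4 separates the groups (at most -0.94 in CP CML, at least -0.86 in BC CML), and the ratios with Tox2 overlap.

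Scaling to the T cell receptor genes left the order of the 3 changes as it was and moved all of them down. Relative to the mean of Cd3d, Cd3e and Cd3g the median of all tested genes was -0.19, since Cd3g itself was higher in BC CML (log2 fold change 0.59). On this scale the Tox difference was 0.19 and missed the threshold (exact permutation p = 0.0613), while those of Tox2, -0.56, and Tox4, -0.28, passed. Relative to the median of all tested genes on the same scale the 3 differences were 0.38, -0.37 and -0.09.

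**Figure D4:**
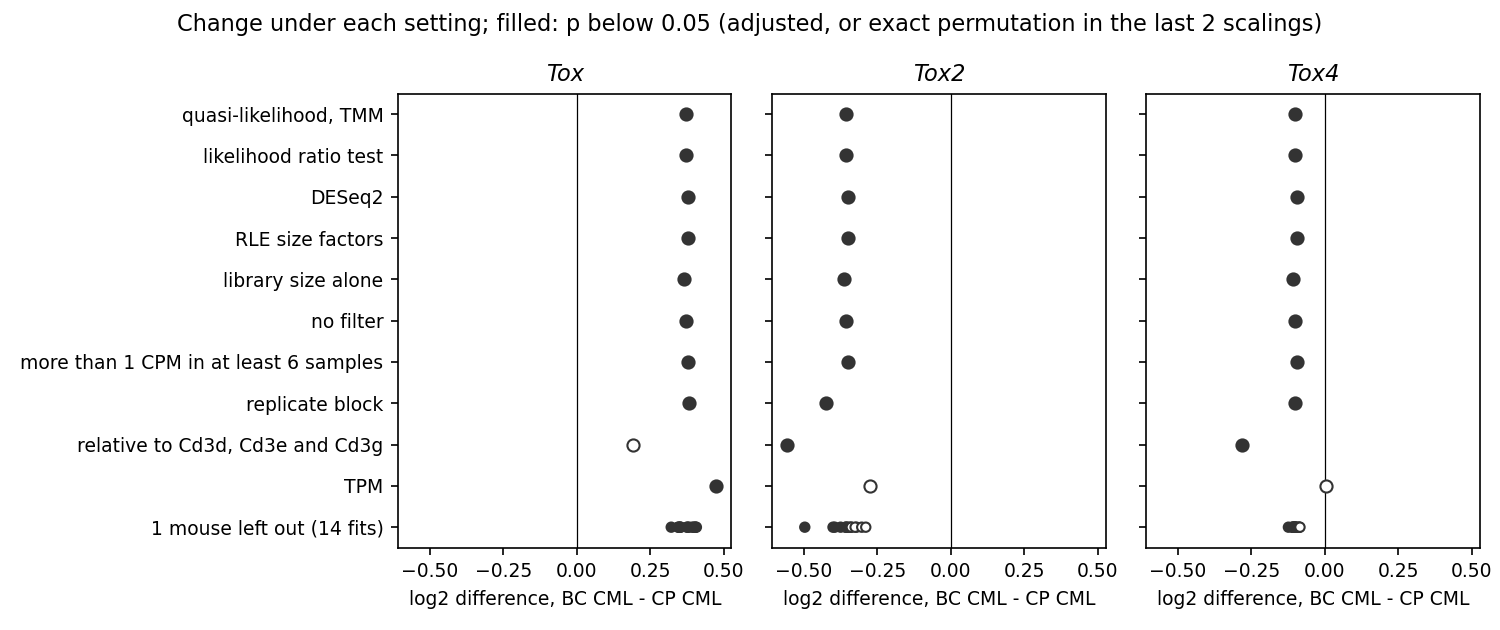
Log2 difference between BC CML and CP CML for Tox, Tox2 and Tox4 under each analysis setting, with filled points below a p of 0.05 and open points above it. Tox stays above 0 throughout, from 0.19 to 0.48, Tox2 stays below 0, and Tox4 reaches 0.00328 in TPM.

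Markers of other cells moved with the groups and stand beside these values. The summed level of 8 naive T cell markers was 4919 to 6275 CPM in CP CML and 2702 to 3875 in BC CML, and 8 of 8 were lower. Cd8a was higher (log2 fold change 0.87) and Cd4 lower (-0.73), while Cd8b1, the other CD8 chain, did not pass (0.07, adjusted p = 0.352). Foxp3, which defines regulatory T cells, was lower (-1.73), but of the 6 regulatory T cell markers 3 were higher and 2 lower, and their sum overlapped between groups (502 to 567 and 492 to 664 CPM).

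NK cell markers summed to 142 to 191 CPM in CP CML and 459 to 695 in BC CML, with 7 of 8 higher and Klra4 at 0 in every library. Innate lymphoid markers summed to 89.0 to 114 and 128 to 171 CPM, with 4 of 8 higher and 1 lower. Myeloid markers summed to 66.0 to 442 and 536 to 1338 CPM, with 9 of 10 higher, among them Lyz2 (3.01). B cell markers (33.2 to 112 and 55.9 to 342 CPM, 5 of 7 higher) and erythroid markers (15.4 to 63.0 and 42.7 to 72.7 CPM, 2 of 6 higher) overlapped. Ncr1 and Hbb-bs were detected in all libraries. The part of any of these in the differences of Tox, Tox2 and Tox4 was not tested.

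Among surface receptors of exhausted T cells, the state Tox maintains, 8 of 14 genes were higher in BC CML, 2 were lower and 4 did not pass, with a median log2 fold change of 0.40 against -0.01 over all tested genes, where 32.6% were higher and 32.7% lower. The largest increases were those of Cd244 (2.65, SE 0.27) and Cd160 (2.25, SE 0.07), receptors also found on NK and effector cells. Cd244 rose from 5.69 ± 1.40 to 35.9 ± 18.7 CPM, and its highest value, 72.5 CPM, was that of BC CML replicate 2. Havcr2, which encodes TIM-3, rose by 0.92 (SE 0.15, from 4.21 ± 0.908 to 7.96 ± 1.51 CPM).

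Slamf6, a marker of progenitor exhausted and naive cells, fell by 1.00 (SE 0.08), and so did Ctla4, by 1.34, which is also high in regulatory T cells. Of the 4 receptors that did not pass, Pdcd1, which encodes PD-1, had a log2 fold change of 0.29 (SE 0.14, adjusted p = 0.0902), with 24.8 ± 3.03 CPM in CP CML and 30.2 ± 9.44 in BC CML, where replicate 5 stood at 49.2. Without that library the Pdcd1 value was 0.09 (adjusted p = 0.328). Lag3 had 0.27 (SE 0.12, adjusted p = 0.0532) and passed under 4 of 7 alternatives, the likelihood ratio test that the study used among them. The other values were Btla -0.19 (adjusted p = 0.125) and Cd200 -0.22 (adjusted p = 0.235). Without CP CML replicate 7 they were -0.11 and -0.13, and without CP CML replicate 5 Btla passed (adjusted p = 0.0400).

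Of 10 calcineurin, NFAT and NR4A genes, the inputs to Tox after receptor stimulation, 4 were higher, 2 lower and 4 did not pass, with a median of 0.10. This is near the background of 65.2% of tested genes called, as it was for the thymic lineage and follicular helper lists, so these 3 counts say nothing particular about the lists. Ppp3ca, the catalytic alpha subunit of calcineurin, rose by 1.09 (SE 0.06, from 73.0 ± 5.99 to 154.9 ± 11.8 CPM) and its groups did not overlap. The beta subunit Ppp3cb did not pass (0.03), and the gamma subunit Ppp3cc rose by 0.54. Among the NFAT factors, Nfatc3 fell by 0.54 (SE 0.04) and Nfatc2 did not pass (0.04, adjusted p = 0.592). Nfatc1 stood near the threshold (0.11, SE 0.05, adjusted p = 0.0448), and its call was lost under 4 of 7 alternatives and in 9 of 14 analyses that left out 1 mouse, with a value of 0.07 without BC CML replicate 5.

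The NR4A factors are immediate-early nuclear receptors that act beside Tox in exhausted cells. Nr4a2 rose by 0.90 (SE 0.16) from 6.96 ± 1.66 CPM, while Nr4a1 (0.09, adjusted p = 0.412) and Nr4a3 (0.38, adjusted p = 0.0731) did not pass. Nr4a3 passed with DESeq2 and in 2 of 14 analyses that left out 1 mouse, and it was 0.21 without BC CML replicate 6. The second gene that fell was Ppp3r1, the calcineurin regulatory subunit, by 0.15.

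Of 17 transcription factors of T cell states, 7 were higher, 8 lower and 2, Foxo1 (-0.05) and Zeb1 (-0.04), did not pass, beside 32.6% higher and 32.7% lower of all tested genes. Tcf7, which encodes TCF1 of naive and progenitor cells, fell by 0.67 (SE 0.06, from 1971 ± 144 to 1239 ± 133 CPM), and its partner Lef1 fell by 0.70 (SE 0.08). Eomes, a factor of memory, exhausted and NK cells, rose by 1.73 (SE 0.11), and Zeb2, a factor of terminal effector cells, rose by 1.66 (SE 0.22). Eomes is also on the NK marker list, and Tcf7 and Lef1 are on that of naive T cells.

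Of 12 factors of thymic T lineage choice, in which Tox acts, 5 were higher, 3 lower and 4 did not pass, beside 65.2% of all tested genes called. Zbtb16, the PLZF factor of innate-like T cells, fell by 2.28 (SE 0.24, from 9.24 ± 1.58 to 1.93 ± 1.16 CPM). Runx1 fell by 0.61 and Ets1 by 0.52, both broad regulators of T cell genes. The chromatin organizer Satb1 rose by 0.14 (adjusted p = 0.0278). Its call was lost with the replicate block and in 4 of 14 analyses that left out 1 mouse. Bcl11b, a guardian of T cell identity, did not pass (-0.08, adjusted p = 0.146).

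Follicular helper genes, the company of Tox2, gave 3 higher, 3 lower and 3 that did not pass among 9 tested, with Ascl2 removed for low counts, again beside 65.2% of all tested genes called. Those that fell were Il6ra, the interleukin-6 receptor (-1.55, SE 0.08), Cxcr5, the receptor that guides these cells to follicles (-1.17, SE 0.22), and Icos, a costimulatory receptor (-0.79, SE 0.08). Il21, Bcl6 and Sh2d1a rose, by 0.81, 0.58 and 0.26, and without BC CML replicate 5 the value of Il21 was 0.39 (adjusted p = 0.0106). The shared interleukin-6 signal transducer Il6st did not pass (0.03).

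In the HBO1 histone acetyltransferase complex, a partner of the Tox protein, 1 of 10 genes was higher, 4 were lower and 5 did not pass, with a median of -0.05, beside 32.6% higher and 32.7% lower of all tested genes. The reader subunit Ing5 fell by 0.80 (SE 0.06) and the scaffold Brd1 by 0.29 (SE 0.04), and Jade2 did not pass (-0.03). The single gene called higher was the enzyme Kat7 (0.08, adjusted p = 0.0409), whose call was lost under 4 of 7 alternatives and in 9 of 14 analyses that left out 1 mouse. The other genes called lower were Brpf1 and Jade1, at -0.11 each, and Jade1 lost its call with the replicate block and in 6 of 14 analyses that left out 1 mouse.

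In the PTW/PP1 complex, the partner of Tox4, only Ppp1cc passed, lower by a log2 value of 0.14 (-0.14, SE 0.04). Ppp1ca (0.10), Ppp1cb (-0.06), Wdr82 (-0.06) and Ppp1r10 (0.04) did not. Ppp1ca stood near the threshold (adjusted p = 0.0597) and passed under 3 of 7 alternatives and in 2 of 14 analyses that left out 1 mouse. The call rate of the list, 1 of 5, stands beside 65.2% of all tested genes.

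**Figure D5:**
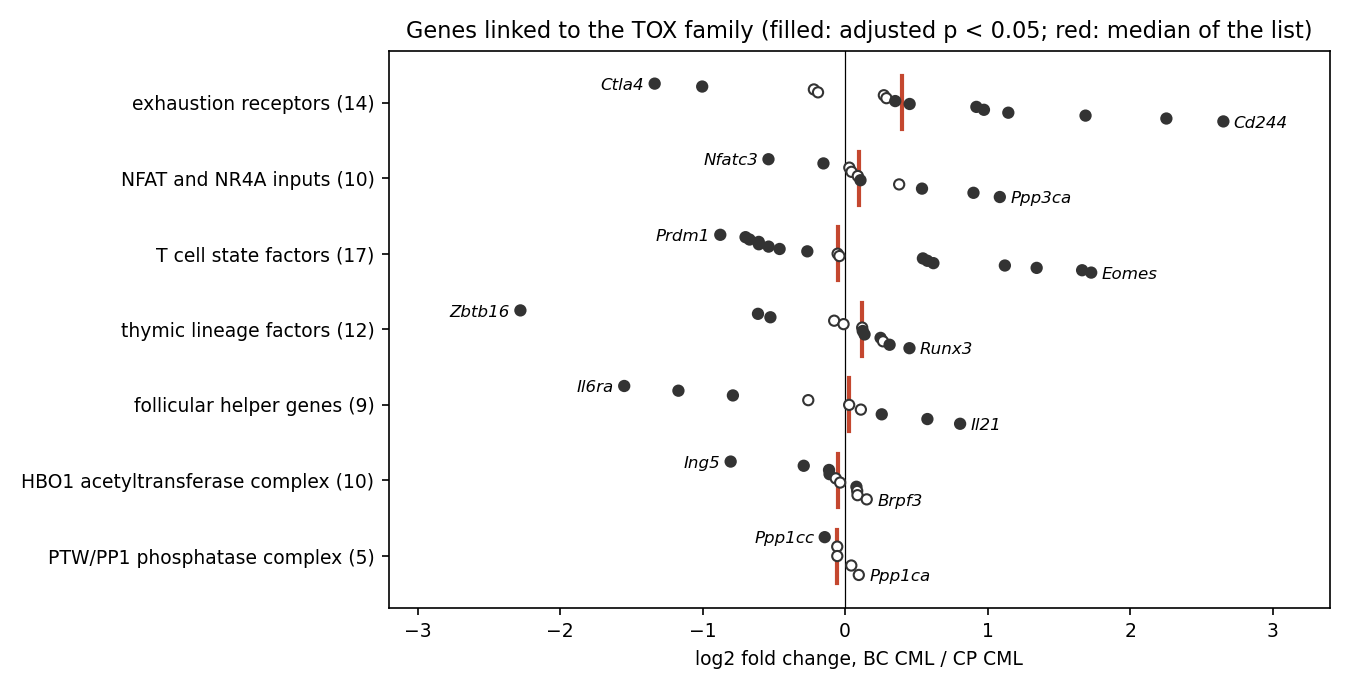
Log2 fold change from CP CML to BC CML of each tested gene in 7 lists linked to the TOX family, filled where the adjusted p was below 0.05, with the median of each list in red and the lowest and highest gene of each list named. The exhaustion receptors have the highest median (0.40). Those of the other lists lie between -0.06 and 0.12, with -0.05 and -0.06 for the 2 complexes of partner proteins.

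The members varied among mice in different ways. After subtracting each group's mean, the correlation over the 14 mice was 0.17 between Tox and Tox2, -0.14 between Tox and Tox4 and 0.59 between Tox2 and Tox4, given as descriptions over libraries that share their depth and cell make-up. Of 9160 genes with an average log2 CPM of at least 3, those closest to Tox by this measure were Exoc6 (Pearson r = 0.93, Spearman rho = 0.84), Nipal1 (0.92 and 0.85) and Faap24 (0.91 and 0.86). Of these only Nipal1 passed the test between the groups, and it was lower (-0.93) where Tox was higher.

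For Tox2 the closest were Synpo (r = 0.89, rho = 0.82), Adar (0.86 and 0.76) and Elob (0.85 and 0.79). Within the groups the r of Adar was 0.49 over the CP CML mice and 0.99 over the BC CML mice. Adar was lower in BC CML (-0.33), as Tox2 was, and Synpo (0.36) and Elob (0.17) were higher. For Tox4 they were Eea1 (r = 0.90, rho = 0.95), Smim13 (0.89 and 0.84) and Mrps6 (0.85 and 0.75), of which Eea1 (0.69) and Smim13 (0.19) were higher and Mrps6 did not pass (0.04). With the 2 mice farthest from the median left out, r stayed between 0.81 and 0.92 for these 9 genes, which were picked as the highest.

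Of the 8 listed genes that flank the members on their chromosomes, 4 had at most 1 read in any library. The nearest on either side of Tox were Nsmaf, 233115 bases away, which did not pass (log2 fold change -0.04, adjusted p = 0.512), and 8430436N08Rik, with 0 reads. The neighbours of Tox2, Gtsf1l and Jph2, had 0 and at most 1 read per library. Tox3 lies between Sall1, with 0 reads, and Chd9, a chromatin remodeller 480583 bases away, which was higher in BC CML (0.22, adjusted p = 8.32e-05).

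Tox4 shares its ends with genes on the opposite strand. Rab2b overlaps it by 250 bases and was lower in BC CML (-0.28, SE 0.06, adjusted p = 0.000604), and Mettl3, the enzyme that methylates adenosine in messenger RNA, overlaps it by 668 bases and was lower as well (-0.27, SE 0.05, adjusted p = 0.000151). The strand setting of the counting is not given in the sources used here, so reads from the overlaps may belong to either gene, and the small difference of Tox4 is uncertain to that extent.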

How the data were processed

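T cells sorted from the spleens of 8 CP CML and 6 BC CML mice were measured by RNA-seq (paired reads of 101 bases). The authors used Trimmomatic for adapters, FASTP for polyA tails, STAR 2.6.0 for alignment to mm10 and HTSeq-count 0.11.1 for counting per gene, and deposited raw counts without normalization, with the position and length of each gene. The annotation and strand setting of the counting are not given in the sources used here. Tool names and versions are from the submitters' processing notes and the study's methods.

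The members and lists were chosen with earlier results of these data known. Genes were kept by filterByExpr, normalized by TMM and tested in edgeR 4.0.16 (with limma 3.58.1, R 4.3.3) by glmQLFit with robust estimation and glmQLFTest on all 14 samples with no covariate, and p-values were adjusted by Benjamini-Hochberg with a threshold of 0.05. Standard errors were derived from the F statistic and the log2 fold change. Log2 CPM used a prior count of 2. Tox3, removed by the filter, and the ratios were tested by exact two-sided permutation over 3003 splits of the mice, for which 0.000333 is the smallest p possible. The fit was tested on simulated counts before use. The samples are separate mice. The counts of replicates differed by more than sampling noise, so none was counted as a repeat.

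Genes named in the text are the members, Mir142, in each of 7 lists the 3 genes of highest level and up to 2 with the largest change among those that passed, 3 genes most like each member, the chromosome neighbours, Pdcd1, Havcr2, Lag3, Tcf7, Nr4a1, Nr4a2, Nr4a3, Nfatc1, Nfatc2 and Ppp3ca, and defining markers. Other genes were named after their values were seen, to complete a count of 5 or fewer, and Cd8b1 was so named beside Cd8a. Neighbours leave out multi-copy small RNAs listed over 5000000 bases or more. Alternatives were the likelihood ratio test the study used, DESeq2 1.42.0, RLE size factors, library size alone, no filter, a minimum of 1 CPM exceeded in 6 or more samples, a prior count of 0.5 for the ratios, the replicate number as a block, each sample left out in turn, and scaling to Cd3d, Cd3e and Cd3g. TPM and GENCODE gene lengths were added after seeing the data. Hba-a1 and Hbb-bt were not analysed here. 1 B cell marker is not reported here. The sequences of the 4 proteins and the promoters were not used here. Counting limits cover counting error only.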

Additional observations from a re-analysis of the deposited data

Results flagged for a closer look

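Groups of 6 or 8 mice were examined for each named gene, each ratio of 2 members and each summed marker list, 131 in all. In these, 10 values stood apart from the rest of their group by Dixon's test at the 95% level. Chance gives about 1 in 20 groups (6.55 here). No value of Tox, Tox2, Tox3 or Tox4 was among them. Of the exhaustion receptors, Pdcd1 in BC CML replicate 5 was 49.2 CPM, with the next mouse at 28.8, Lag3 in CP CML replicate 5 was 20.3 CPM (next 16.0), and Cd244 in BC CML replicate 2 was 72.5 CPM (next 37.3). Btla in CP CML replicate 7 was 351.4 CPM (next 260.5), and Btla in BC CML replicate 2, the lowest of its group, was 180.4 CPM (next 219.7). Of the factors and inputs, Zbtb16 in BC CML replicate 2 was 4.24 CPM (next 1.73), Ppp3ca in BC CML replicate 6 was 177.7 CPM (next 156.6) and Ets1 in CP CML replicate 7 was 2362 CPM (next 2117). Of the genes most like Tox2, Elob in BC CML replicate 5 was 60.0 CPM (next 51.9) and Synpo in CP CML replicate 8 was the lowest at 6.73 CPM (next 8.75). Of the 10 values, 3 were those of BC CML replicate 2, 2 each those of BC CML replicate 5 and CP CML replicate 7, and the others came from 3 further libraries.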

How the results depend on the processing

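The count of genes that passed was between 7280 and 8719 over 7 alternatives and between 7721 and 7966 with 1 mouse left out, against 7986. Tox kept its direction under 9 alternatives (log2 difference 0.19 to 0.48) and its call except relative to Cd3d, Cd3e and Cd3g (0.19, exact permutation p = 0.0613), and it was 0.32 to 0.41 with 1 mouse left out. Tox2 missed the threshold in TPM (-0.28, exact permutation p = 0.0636) and ranged from -0.50 to -0.29 with 1 mouse left out, losing the call without BC CML replicates 2, 3, 4 or 6 or CP CML replicate 2. Tox4 changed sign in TPM (0.00328, exact permutation p = 0.919) and ranged from -0.124 to -0.085 with 1 mouse left out, losing the call without BC CML replicates 3 or 4. For Tox3, which the filter removes, the likelihood ratio test, DESeq2, the CPM filter and the block were not run. Its exact permutation p was 0.195 to 0.845 with 1 mouse left out.

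With 1 mouse left out the ratio of Tox to Tox2 differed by 0.68 to 0.84 and that of Tox to Tox4 by 0.43 to 0.51, and both kept their call, while that of Tox2 to Tox4 differed by -0.37 to -0.21 and kept it only without BC CML replicate 1 or 5 or CP CML replicate 8. The HBO1 count was 3 to 5, at 3 without BC CML replicate 1 or 4 or CP CML replicate 8, and the PTW/PP1 count was 1 to 2, at 2 without BC CML replicate 4 or CP CML replicate 5 and with DESeq2, RLE size factors or the CPM filter. The other 5 lists stayed within 1.5 times their counts. The calls of Kat7 and Nfatc1 were lost with library size alone, the likelihood ratio test, no filter and the replicate block, and Pdcd1 passed with the replicate block (adjusted p = 0.0384).

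The replicate number did not pair the mice. Over 6 numbers the correlation of deviations was between -0.27 and 0.36, and for 2 of 6 numbers the same-numbered samples correlated best. With the replicate block, over replicates 1 to 6 of each group, the log2 fold changes were 0.38 for Tox, -0.42 for Tox2 and -0.10 for Tox4 (adjusted p = 0.0115, 0.0328 and 0.0312), the HBO1 count was 3, and the ratio of Tox2 to Tox4 differed by -0.32 (adjusted p = 0.125). Depth limits Tox3. Tox2 had 78 to 162 reads per library, and the part of depth in its spread between mice was not tested.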
